A study of Mus musculus with 49 samples.

Results

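The 44 genes described here encode proteins of the extracellular matrix, enzymes that build or cut it, and surface or contractile proteins by which fibroblasts are known. They were taken by name from a list of such genes, which was chosen with earlier results of these data known. All 44 were found among the 55487 genes of the count table. The list held 5 fibrillar collagens, 3 basement membrane collagens, 3 chains of collagen VI, 4 fibril-associated collagens, 7 elastic fibre genes, 5 leucine-rich proteoglycans, 4 matricellular glycoproteins, 2 crosslinking enzymes, 3 proteases, 3 protease inhibitors, 3 surface receptors or markers and 2 contractile genes. Their levels were measured in 49 RNA sequencing libraries from 6 HuHER2 transgenic mice, which carry HER2, the human receptor gene that drives a class of breast cancers, and bore palpable primary mammary tumors (palpation began at 7 months of age per the labels). What drives the transgene is not given in the sources used here, and every mouse carried both the transgene and a tumor. PBS was given to 3 mice and BP, an iron oxide nanoparticle known here by its code name, to the other 3, with a dose of 5 mg Fe per mouse injected into a vein 1 time. The series' design text places the end of the experiment 7 days after treatment, whereas a treatment protocol label names 31 days. Tumor, lung, liver, spleen, lymph node and bone marrow of each mouse gave 36 bulk libraries, 3 per organ and treatment. A further section of each BP organ other than lung was digested into separate cells, and cells that a magnet drew out gave 13 nanoparticle-associated libraries: 1 came from the lymph node of BP mouse 2, and tumor, liver, spleen and bone marrow gave 3 each. Mice are numbered within each treatment by the replicate number in the labels. Further mice of the study, used for NanoString panels, were not analysed here.

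The matrix is the protein mesh between cells. Fibrillar collagens give it tensile strength, fibril-associated collagens and leucine-rich proteoglycans such as decorin sit on the fibrils and set their spacing, and elastin with its microfibrils lets lung and vessels recoil. Basement membranes are thin sheets, built on collagen IV, under epithelium, endothelium and smooth muscle. Fibroblasts, which carry the platelet-derived growth factor receptor Pdgfra, are the main makers of most of these proteins, while hepatocytes make the fibronectin of blood plasma, and tumors are known to change the matrix around them.

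Library totals ran from 9362264 to 19734849 expected counts, so that 3 counts, the most that a gene listed at 0 may hold at the limit used here, came to 0.152 to 0.32 CPM (a gene's counts scaled to the library total). At most 4 of the 44 genes were at 0 in any library. Marker genes matched the labelled organs: hepatocyte markers summed to at least 89740.3 CPM in every bulk liver, lung epithelial markers to at least 56182 CPM in every lung, neutrophil markers to at least 30595 CPM in every marrow and mammary epithelial markers to at least 10410 CPM in every bulk tumor. Several libraries stood apart from the others of their group. Among BP tumors, adipocyte markers were at 13697, 1588 and 403 CPM in mice 1 to 3 and skeletal muscle markers at 4907 CPM in mouse 2 against 3.00 and 1.38 CPM. In PBS tumors, neutrophil markers were at 24452 CPM in mouse 1 against 32.4 and 309 CPM. In PBS lymph node 2, 28.6% of counts were mitochondrial (8.79 and 11.6% in the other nodes of the group), and in BP tumor 1 it was 19.5% (8.33 and 3.97%). In liver, 48.2 to 57.2% of the counts of nanoparticle-associated cells were mitochondrial, against 5.67 to 7.06% in bulk. Digested cells also carried the early response that tissue digestion is known to raise, with its 10 markers at 1227 to 10916 CPM in all 13 nanoparticle-associated libraries against 101 to 621 CPM in the bulk BP libraries of the same organs. In bulk tissue, fewer cells of a type and less RNA per cell cannot be told apart.

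Without nanoparticles, the matrix genes were spread unevenly over the organs of the PBS mice, and the lung held most of them. By mean CPM, 24 of the 44 genes were highest in lung, 9 in lymph node, 9 in tumor, 1 (Fn1) in liver and 1 (Col5a1) in marrow. Levels above every library of the other PBS organs were found for 12 of the 24 in lung, 2 of the 9 in lymph node and 4 of the 9 in tumor. Fn1 in liver stood apart likewise, and Col5a1 in marrow did not. The same was not counted over all genes. Per kilobase of exon, which allows levels of different genes to be compared, the leading genes were Col9a1 at 246 CPM per kilobase in tumor, Sparc at 450 in lung, 129.5 in lymph node and 63.8 in spleen, and Fn1 at 143 in liver and 41.2 in marrow. Fn1 alone made up 75.9% of the members' summed CPM, not divided by length, in liver and 50.9% in marrow.

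**Figure D1:**
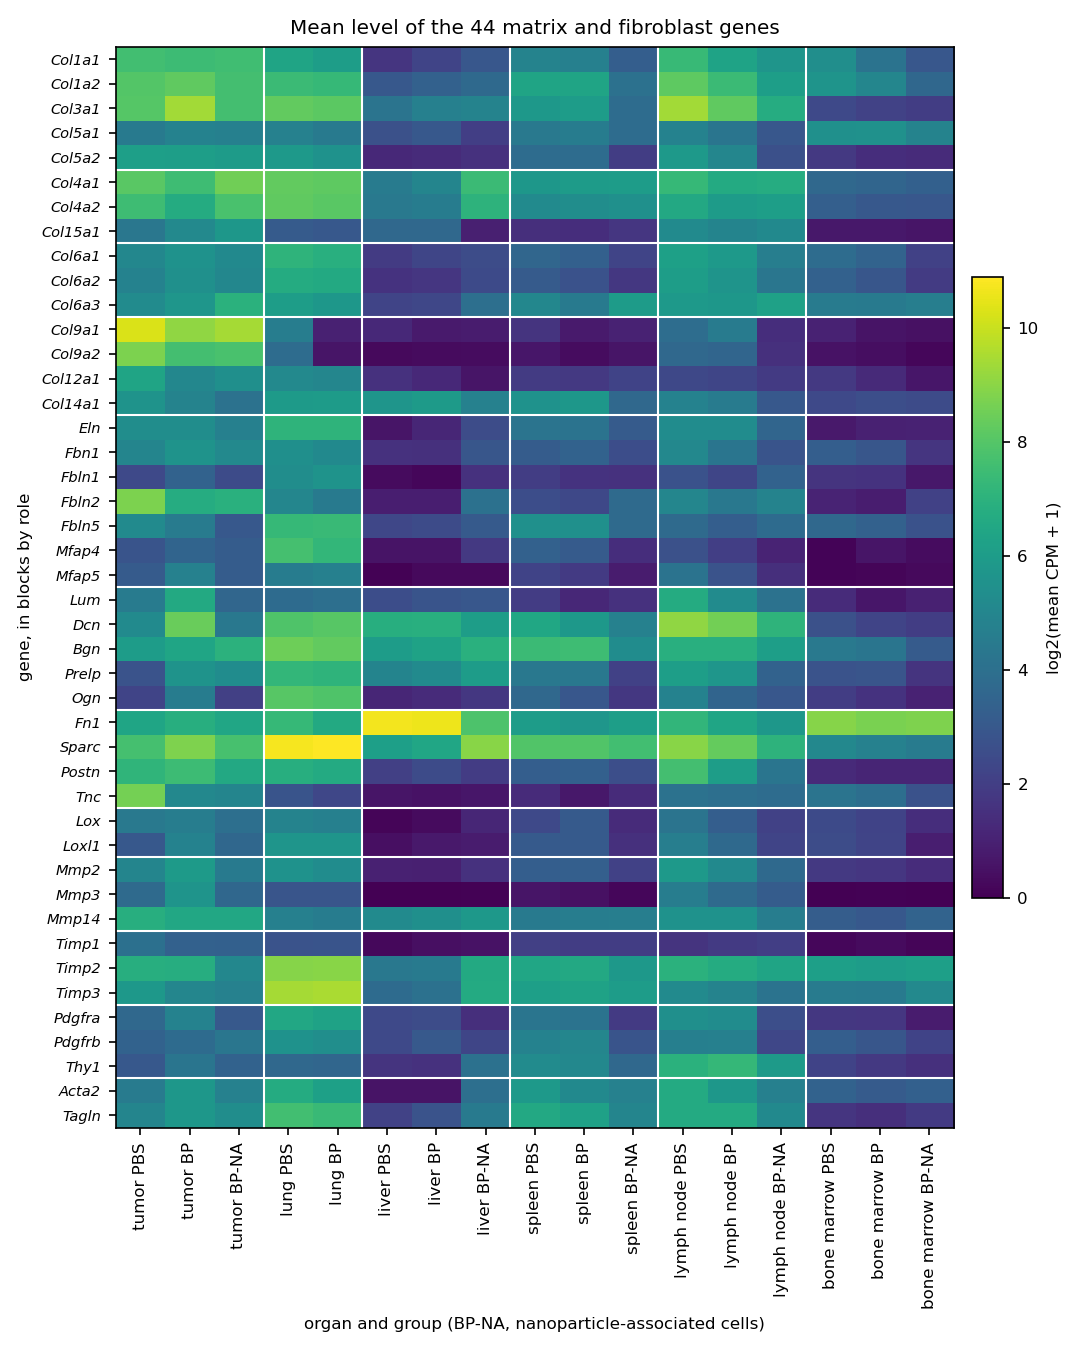
Mean level of each of the 44 genes (rows, in blocks by role) in each of the 17 groups (columns), as log2(mean CPM + 1); groups hold 3 libraries, except the lymph node nanoparticle-associated group, which holds 1. The brightest cells are Sparc in lung, Fn1 in liver and Col9a1 in tumor, and most genes are dark in liver and bone marrow.

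Each organ was then set against the mean of the other 5 in 1 fit of the 18 PBS bulk libraries with edgeR's quasi-likelihood test, in which a gene passed at a Benjamini-Hochberg adjusted p under 0.05 over 17696 genes. These contrasts share their libraries. Fold changes are log2 values with their standard error and carry TMM scaling, which corrects for the RNA composition of each library. Those of genes near 0 in some organs (among them Mmp3, Mfap4 and Mfap5 in liver and marrow, Lox, Col9a2 and Fbln1 in liver and Timp1 in marrow) depend on the small count that edgeR adds, and are not bounds.

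In lung, 33 of the 44 genes were higher than in the other organs and 0 were lower (29.2 and 21.5% of all genes, together 50.6%), with a median change of 2.15 against -0.01 for all genes tested. All 7 elastic fibre genes rose, led by the microfibril gene Mfap4 (6.56 ± 0.57, adjusted p = 6.38e-08), elastin itself, Eln (4.14 ± 0.35), and Mfap5 and Fbln1 (3.97 and 3.94). Eln stood at 154, 115 and 138 CPM in the 3 lungs, above each of the other 15 PBS libraries, the next highest being 86.9 CPM in tumor 2. Both crosslinking enzymes were higher, Loxl1 by 3.12 ± 0.43 and Lox by 2.61 ± 0.59, and so were all 3 inhibitors of matrix proteases, among them Timp3 (4.05 ± 0.25). Sparc, which binds collagen and calcium, was at 1311, 1857 and 1949.8 CPM, and its lowest lung lay above its highest library elsewhere, 864 CPM in lymph node 3. Ogn, a leucine-rich proteoglycan, was higher by 5.31 ± 0.38. The growth factor receptor Pdgfra, at 64.2 to 129.7 CPM in lung, was higher by 2.92 ± 0.24, whereas Col1a1, at 112, 39.2 and 89.7 CPM, did not pass in lung. Of the 33 calls, 29 held under every one of 9 alternatives. Mfap4, Ogn, Timp3 and Tagln overlap the genes Mapk7, Cenpp, Syn3 and Pcsk7, as Col4a1 and Col4a2 overlap each other, and whether counting used the strand is not given in the sources used here, so their values may hold reads of the neighbour.

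In tumor, 20 genes were higher and 5 lower (28 and 22.6% of all genes, together 50.7%). The highest were the 2 collagen IX chains, which textbooks place in cartilage on the surface of collagen II fibrils. Col9a1 (GRCm38 chr1:24177610-24252684, plus strand) was at 817, 1579 and 1339 CPM in the 3 PBS tumors and Col9a2 (chr4:121039385-121055322) at 287, 532 and 461 CPM, while neither passed 66.8 CPM in any other PBS library. Their fold changes were 8.07 ± 0.61 (adjusted p = 1.18e-08) and 7.88 ± 0.64 (2.75e-08). Of 5 bone and cartilage markers tested 3 were higher in tumor and 0 lower, with sums of 8010, 187 and 938 CPM in the 3 tumors. Of the 8 markers listed, Bglap, Bglap2 and Acan were at 0 in all 3 PBS tumors, and 4 were above 0 in each of them. The part of these markers in the result was not tested. Fbln2, a fibulin of elastic fibres and basement membranes, was at 561, 493 and 213 CPM and higher by 6.06 ± 0.30, again above every other PBS library. Tnc, a glycoprotein of wounds and tumor stroma, was higher by 6.33 ± 0.56, but unevenly, at 1037, 89.9 and 44.1 CPM. All 3 basement membrane collagens rose, with Col4a2 at 1.80 ± 0.34, as did the fibril-associated Col12a1 (3.99 ± 0.47). The proteoglycan Prelp, at 9.51, 3.52 and 4.74 CPM, was lower by -2.65 ± 0.34, as were Ogn (-2.01 ± 0.56), Fn1 (-1.83 ± 0.58), Thy1 (-1.13 ± 0.37) and Pdgfrb (-0.96 ± 0.35).

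PBS tumor 1 carried much of the rest. It was the highest of the 3 tumors for 39 of the 44 genes, for example at 514 CPM of Col1a1 against 26.4 and 39.2 and at 675 CPM of Col3a1 against 17.9 and 73.0, and its neutrophil markers stood apart as given above; their part in the result was not tested. Without all 6 organs of PBS mouse 1, 9 genes were higher and 16 lower (26.8 and 25.9% of all genes) and the median change went from 0.89 to -0.62. The signs of Col1a1, Col3a1, Lox and Mmp14 reversed, from 2.40, 1.85, 2.13 and 2.06 to -0.24, -0.72, -0.80 and -0.26. Calls that held under all 9 alternatives were those of Col9a1, Col9a2, Col12a1, Fbln2, Tnc, Col4a1, Col4a2 and Col15a1, higher, and Prelp and Ogn, lower.

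Collagen IX was also found outside the tumor, in 1 lung and in lymph nodes. In lung, Col9a1 was at 66.8 CPM in PBS mouse 2 against 2.03 and 2.57, and Col9a2 at 38.3 against 1.01 and 0.825 CPM. That lung also held the milk protein genes Csn3 at 372 CPM against 17.2 and 37.8 and Lalba at 142 against 2.48 and 2.57 CPM. In lymph node, Col9a1 was at 12.8, 3.76 and 24.6 CPM in PBS mice and at 19.8, 0.641 and 46.8 CPM in BP mice, and the summed mammary epithelial markers were at 571, 444 and 1110 and at 757, 50.4 and 1368 CPM. In both treatments the node with most Col9a1 was the node with most of these markers, and their part in the level was not tested.

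Lymph node, too, was rich in matrix genes, with 27 genes higher and 1 lower (20.2 and 13.6% of all genes, together 33.8%) and a median change of 1.62. Decorin, Dcn, was at 486, 538 and 581 CPM, above every other PBS library, and higher by 3.19 ± 0.54. Thy1, a surface protein of both fibroblasts and T cells, was at 177, 74.7 and 119.7 CPM and higher by 3.83 ± 0.28, also without overlap with any other organ. Lum (4.03 ± 0.64), Postn (3.62 ± 0.51), Col3a1 (3.52 ± 0.55), Mmp3 (5.28 ± 0.71) and Col15a1 (2.81 ± 0.30) rose as well. Node 3 was the highest of the 3 for 40 of the 44 genes, as for Col3a1 at 1489 CPM against 247 and 274. Without the organs of PBS mouse 3 the count was 13 (17.1% of all genes). Fbln5 was the 1 gene lower, by -1.24 ± 0.44. All 8 adipocyte markers were higher in lymph node too, with a median change of 7.95 and sums of 2492, 11314 and 7201 CPM, as were 6 of 8 mural markers (sums of 205, 199 and 317 CPM) and all 8 T cell markers; their part was not tested.

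Liver and marrow held little of the list. In liver 6 genes were higher and 30 lower (29 and 35.3% of all genes, together 64.3%), and in marrow 2 were higher and 31 lower (27.5 and 30.4%, together 57.9%), with median changes of -2.37 and -2.51 against -0.37 and -0.18 for all genes. Fibronectin, Fn1, was the exception in both, at 1826, 1723 and 1446 CPM in liver (higher by 4.60 ± 0.41) and at 579, 537 and 327 CPM in marrow (1.43 ± 0.45). In marrow Col5a1, a chain that starts fibrils, was the other gene higher (1.32 ± 0.48). Neither call in marrow held under all 9 alternatives, since both were lost without mouse 2, whereas 23 of the 31 lower calls held. Liver also had more Col15a1 (2.09 ± 0.31), a collagen of basement membranes, and Col14a1, Dcn, Prelp and Mmp14 (1.28 to 1.91). The last 4 did not pass when libraries were scaled by their totals alone. On that scale the liver had 2 genes higher and 36 lower (14.3 and 61.4% of all genes) and the median of all genes moved by -1.01. Among the genes lowest in liver was smooth muscle actin, Acta2, at 0.338, 0.231 and 0.935 CPM (-5.30 ± 0.74). The crosslinking enzyme Lox was at 0, 0.154 and 0.134 CPM there, at or under the level that 3 counts allow.

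Spleen had 3 genes higher and 11 lower (25.3 and 21.8% of all genes, together 47%). The 3 were the contractile genes Tagln (1.87 ± 0.37) and Acta2 (1.52 ± 0.42) and the surface marker Thy1 (1.65 ± 0.30), which was at 38.7, 37.7 and 35.1 CPM. Among those lower were Tnc (-3.41 ± 0.93), Col15a1 (-2.58 ± 0.44) and Fn1 (-2.44 ± 0.61). Scaling by library totals gave 5 higher and 7 lower (35.2 and 13.8% of all genes), with the median of all genes moved by 0.32. Without the organs of PBS mouse 3 the count was 7 (27.5% of all genes), and the call of Acta2 was lost without mouse 2. Calls that held under all 9 alternatives were 6 of the 14, Thy1 and Tagln, higher, and Tnc, Col15a1, Fn1 and Fbln2, lower.

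Promoters of genes that led an organ or moved apart in the comparisons below are shown so that their sequence can be read beside their levels. RefSeq tables on GRCm38.p6 held a promoter for 28 of the 44 genes, each read here over the 250 bases before the start, 5′ to 3′ on the gene's strand. Capitals mark a match to TATAAA, to the AP-1 site (TGACTCA or TGAGTCA), to CCAAT, to GGGCGG or to the CArG box, sought on both strands. Col9a1 (chr1:24177360-24177609, plus strand) led in tumor, Col3a1 (chr1:45311288-45311537, plus strand) among the fibrillar collagens of lymph node, and Mmp3 (chr9:7445572-7445821, plus strand) was near 0 in liver and marrow. Col6a3 (chr1:90843972-90844221, minus strand) and Prelp (chr1:133921415-133921651, minus strand, 13 bases of an exon left out) are described further below.
Col9a1: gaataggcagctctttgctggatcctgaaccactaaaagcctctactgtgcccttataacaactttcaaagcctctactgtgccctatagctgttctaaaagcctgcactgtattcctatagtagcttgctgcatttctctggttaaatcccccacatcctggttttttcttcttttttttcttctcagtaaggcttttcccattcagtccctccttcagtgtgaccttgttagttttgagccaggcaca
Col3a1: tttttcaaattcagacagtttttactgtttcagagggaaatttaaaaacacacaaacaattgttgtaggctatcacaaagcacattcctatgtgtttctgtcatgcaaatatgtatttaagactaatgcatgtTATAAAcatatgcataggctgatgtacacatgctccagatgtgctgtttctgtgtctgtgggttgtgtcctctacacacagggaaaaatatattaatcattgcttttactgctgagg
Mmp3: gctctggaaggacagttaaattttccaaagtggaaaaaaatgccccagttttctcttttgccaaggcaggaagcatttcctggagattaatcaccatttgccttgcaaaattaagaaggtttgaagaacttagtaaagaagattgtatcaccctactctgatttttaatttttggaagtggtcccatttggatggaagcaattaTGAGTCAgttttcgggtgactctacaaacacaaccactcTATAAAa
Col6a3: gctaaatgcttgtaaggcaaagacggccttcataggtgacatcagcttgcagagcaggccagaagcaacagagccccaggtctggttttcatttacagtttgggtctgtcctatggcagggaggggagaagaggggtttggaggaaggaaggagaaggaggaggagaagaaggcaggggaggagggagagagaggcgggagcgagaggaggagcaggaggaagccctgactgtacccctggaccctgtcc
Prelp: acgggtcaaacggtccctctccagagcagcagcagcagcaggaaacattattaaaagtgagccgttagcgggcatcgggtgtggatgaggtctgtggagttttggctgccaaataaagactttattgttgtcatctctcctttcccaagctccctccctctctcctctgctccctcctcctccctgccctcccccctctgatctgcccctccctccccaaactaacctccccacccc
In Mmp3 the AP-1 match began 46 bases before the start and the TATAAA match 7 bases before it, and in Col3a1 the TATAAA match began 117 bases before it. TATAAA was found in 17.9% of the members' promoters (5 of 28) and in 12.4% of all 32851, the AP-1 site in 7.14% (2) and 4.46%, CCAAT in 28.6% (8) and 33.8%, GGGCGG in 50% (14) and 32.7%, and the CArG box in 0 and 1.47%. The CCAAT match of Prelp lies in or overlaps the 13 bases left out, which were searched too. A match is a string of letters and not a bound site.

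The next question was whether BP changed these genes in bulk tissue 7 days after injection, by the design text. In no organ did a member pass. With edgeR's quasi-likelihood test 0 of 44 genes passed in tumor, 0 of 44 in lung, 0 of 34 tested in liver, 0 of 42 in spleen, 0 of 44 in lymph node and 0 of 38 in marrow; of all genes tested, 0, 0, 0.0235, 0, 0 and 0% passed. At an unadjusted p under 0.05 the members were 6, 4, 4, 2, 3 and 2 in that order, and of all genes tested 5.96, 0.872, 3.56, 0.711, 3.61 and 1.32% reached it. DESeq2 passed 3 members in tumor, 0.949% of all genes there, and 0 members in the other 5 organs. A p that misses the threshold does not show that levels were equal.

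**Figure D2:**
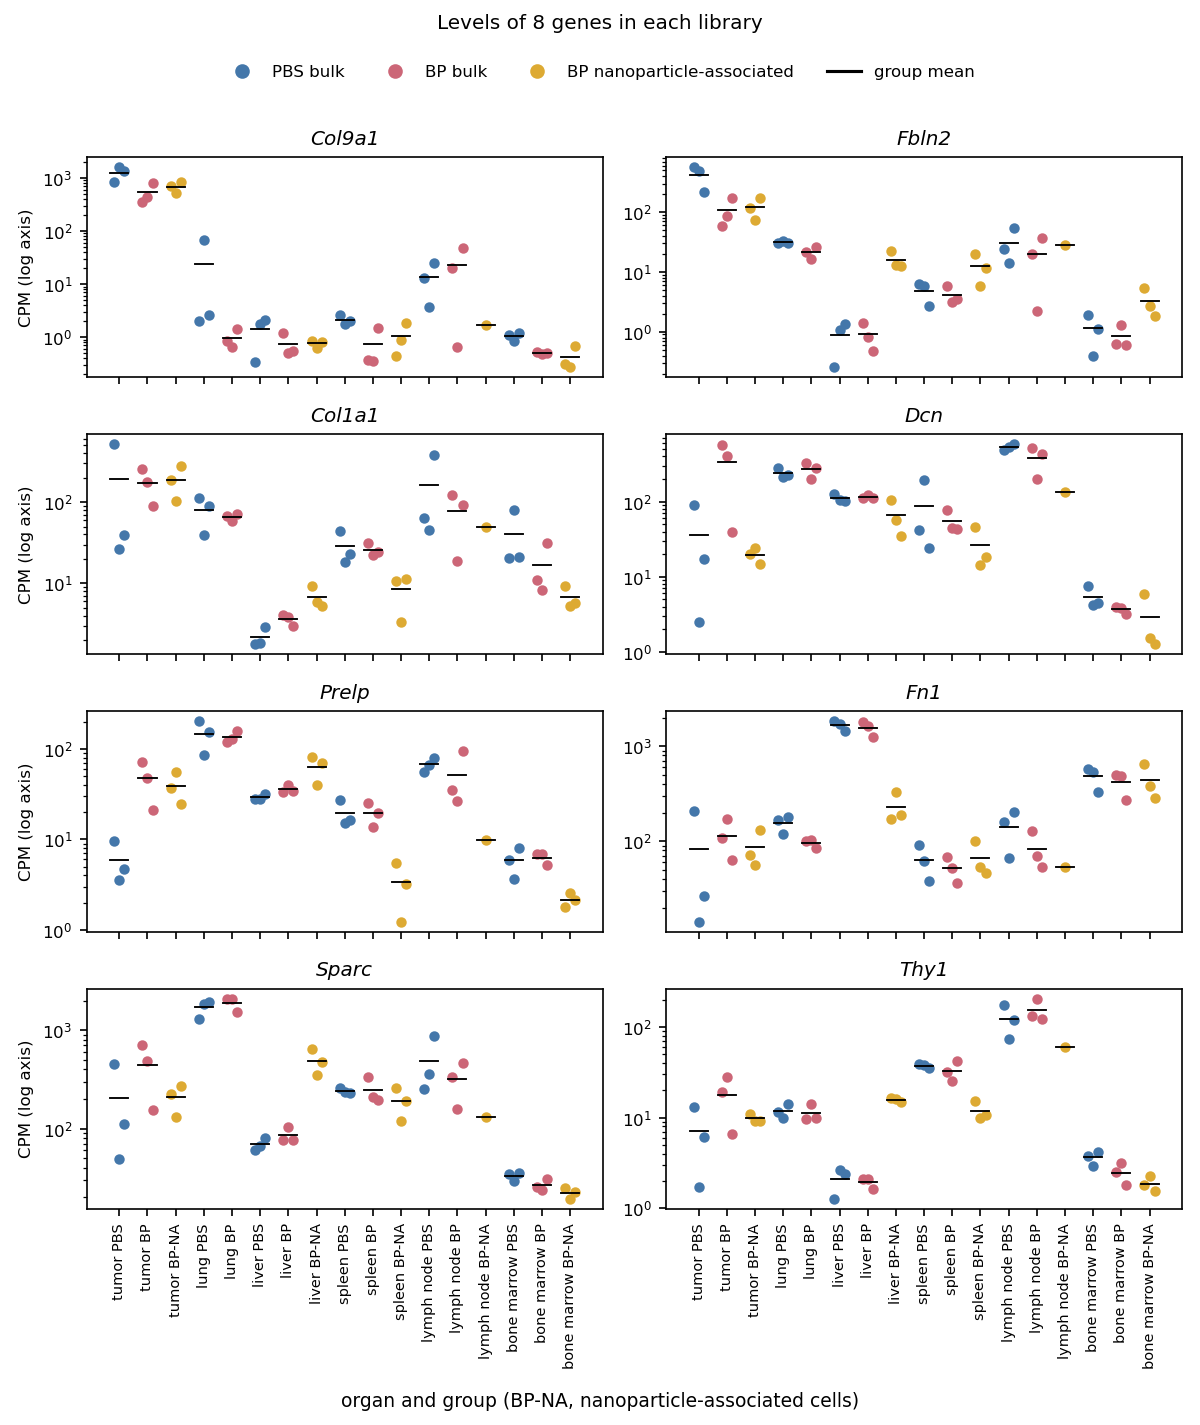
Level of 8 genes in each of the 49 libraries, as CPM on log axes, with a line at each group mean. Col9a1 and Fbln2 are highest in PBS tumors, Prelp is lower in the 3 PBS tumors (3.52 to 9.51 CPM) than in the 3 BP tumors (21.2 to 72.1 CPM), Fn1 drops from bulk liver to the nanoparticle-associated cells, and Sparc and Thy1 rise there.

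Tumor showed the widest spread of changes. Prelp was at 9.51, 3.52 and 4.74 CPM in PBS tumors and at 72.1, 48.3 and 21.2 CPM in BP tumors, Fbln2 at 561, 493 and 213 against 58.5, 86.0 and 175 CPM, and Col9a1 at 817, 1579 and 1339 against 357, 437 and 811 CPM. These 3 were the members whose groups did not overlap on the TMM scale, on which overlap is counted here (3 of 44; 10.8% of all genes). Their changes from PBS to BP were 3.22 ± 0.67, -1.96 ± 0.46 and -1.18 ± 0.39, each with an adjusted p of 0.797 by edgeR's quasi-likelihood test. DESeq2 passed Prelp, Fbln2 and Tnc, whose change was -3.41 ± 1.17 and which was at 1037 CPM in PBS tumor 1 against 89.9 and 44.1 in the other PBS tumors. By fitted change 32 members were higher and 12 lower in BP tumors, with a median of 0.60 that ran from 0.16 to 2.54 as each mouse was left out. Dcn was at 89.4, 2.46 and 17.0 CPM in PBS tumors and at 573, 411 and 39.6 CPM in BP tumors, and the groups overlapped; its high libraries, BP tumors 1 and 2, are those with the adipocyte and muscle markers given above, and the part of adipose tissue and muscle in these values was not tested.

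**Figure D3:**
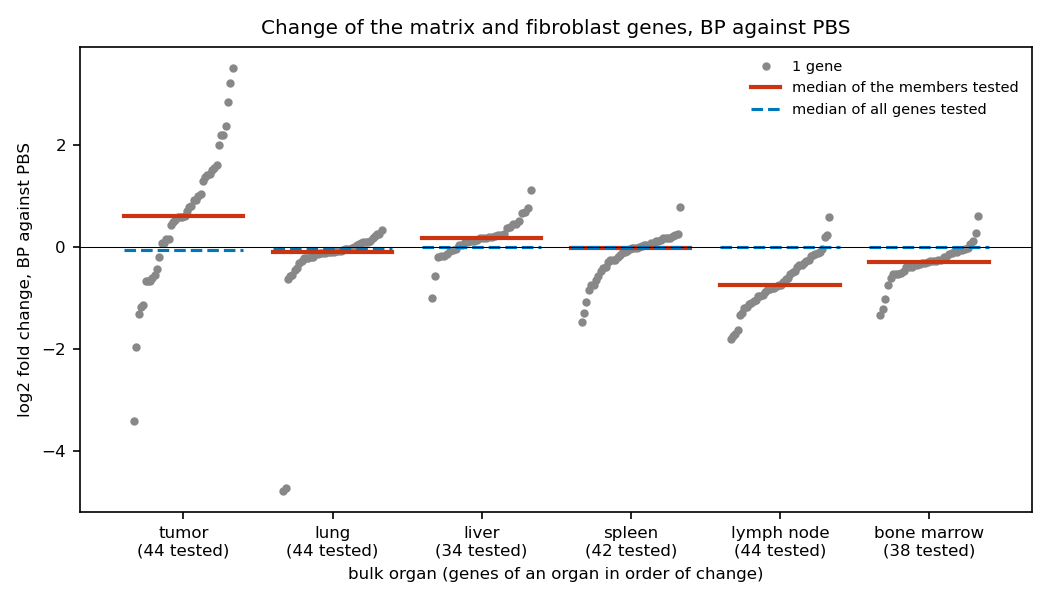
Log2 fold change of each tested member from PBS to BP in each bulk organ, ordered within the organ, with the median of the members (solid line) and of all genes tested (dashed line). Points are widest in tumor, where the members' median is 0.60, and 41 of 44 lie below 0 in lymph node; no member passed in any organ.

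In lymph node 41 of 44 members were lower by fitted change (38 when scaled by library totals), with a median of -0.75 and a range of -1.03 to -0.19 as each mouse was left out, but 0 had groups that did not overlap (6.81% of all genes). The lowest p there were those of the proteoglycan Ogn (-1.62 ± 0.65), Postn (-1.80 ± 0.73) and Fn1 (-0.88 ± 0.37), with adjusted p of 0.866 by edgeR's quasi-likelihood test. PBS node 3 was the highest of its group for 40 members and BP node 2 the lowest of its group for 37; BP node 2 also had the fewest adipocyte markers, 258 CPM against 1710.0 and 7597, whose part was not tested. In lung the groups of 4 members did not overlap (4.42%), all lower: Fn1 (169, 118 and 179.5 against 100.1, 104 and 85.0 CPM; -0.63 ± 0.18), Fbln2 (-0.54 ± 0.21), and Col9a1 and Col9a2 (-4.71 ± 1.49 and -4.77 ± 1.61), of which the last pair were also at 66.8 and 38.3 CPM in the 1 PBS lung described above.

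In liver the groups of 6 members did not overlap (8.38%), among them Pdgfrb, the receptor of mural and stellate cells, at 3.64, 5.07 and 4.14 CPM in PBS and 7.28, 7.61 and 6.79 CPM in BP mice (0.69 ± 0.18), and Col1a1 at 1.78, 1.84 and 2.94 against 4.07, 3.89 and 2.97 CPM (0.66 ± 0.27). Their adjusted p were 0.923 and 0.999 by edgeR's quasi-likelihood test. Bgn, Prelp and Postn were the other 3 higher without overlap, and Col12a1 was lower. In spleen 1 member did not overlap (4.48%), Col9a1, at 2.57, 1.76 and 1.98 against 0.377, 0.352 and 1.52 CPM. In marrow 3 did not (5.92%): Col9a1, Lum and Dcn, all lower in BP mice, with Dcn at 7.55, 4.22 and 4.50 against 3.99, 3.86 and 3.23 CPM.

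Whether the change with BP differed among the 6 organs was tested as an interaction over the 36 bulk libraries. Prelp was the 1 member of 44 that passed (adjusted p = 0.0341 by edgeR's quasi-likelihood test; 0.0913% of all genes passed). Its fitted change was 3.22 in tumor, and between -0.63 (lymph node) and 0.22 (liver) in the other 5 organs. The call was lost with library totals as the scale and without each mouse number in turn. It was also lost with each of the 6 mice as a block, under which 0.00537% of all genes passed.

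Nanoparticle-associated cells were compared with the bulk organ of the same 3 BP mice, to ask how far the cells that held nanoparticles carried matrix transcripts. Digestion and the magnet cannot be told apart from association with nanoparticles in this design, and these comparisons share the bulk BP libraries with those above. In liver 29 of 37 tested members passed, 27 higher and 2 lower (74.8% of all genes passed, 37.3% higher and 37.5% lower), with a median change of 1.53 against 0.01 for all genes. In spleen 17 of 42 passed, 2 higher and 15 lower (42.2, 20.2 and 22%), with a median of -0.93. In marrow 13 of 36 passed, 1 higher and 12 lower (7.69, 4.8 and 2.9%), with a median of -0.44. In tumor 2 of 44 passed, both lower (9.04% of all genes, 5.87% higher and 3.17% lower), with a median of -0.50. Members too low to be tested were 7 in liver (Col9a2, Fbln1, Mfap5, Tnc, Loxl1, Mmp3 and Timp1), 2 in spleen (Col9a2 and Mmp3) and 8 in marrow (Col9a1, Col9a2, Col15a1, Mfap4, Mfap5, Lum, Mmp3 and Timp1). Groups did not overlap for 26 members in liver, 23 in spleen, 18 in marrow and 7 in tumor, against 78.4, 55.6, 30.5 and 38.7% of all genes.

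**Figure D4:**
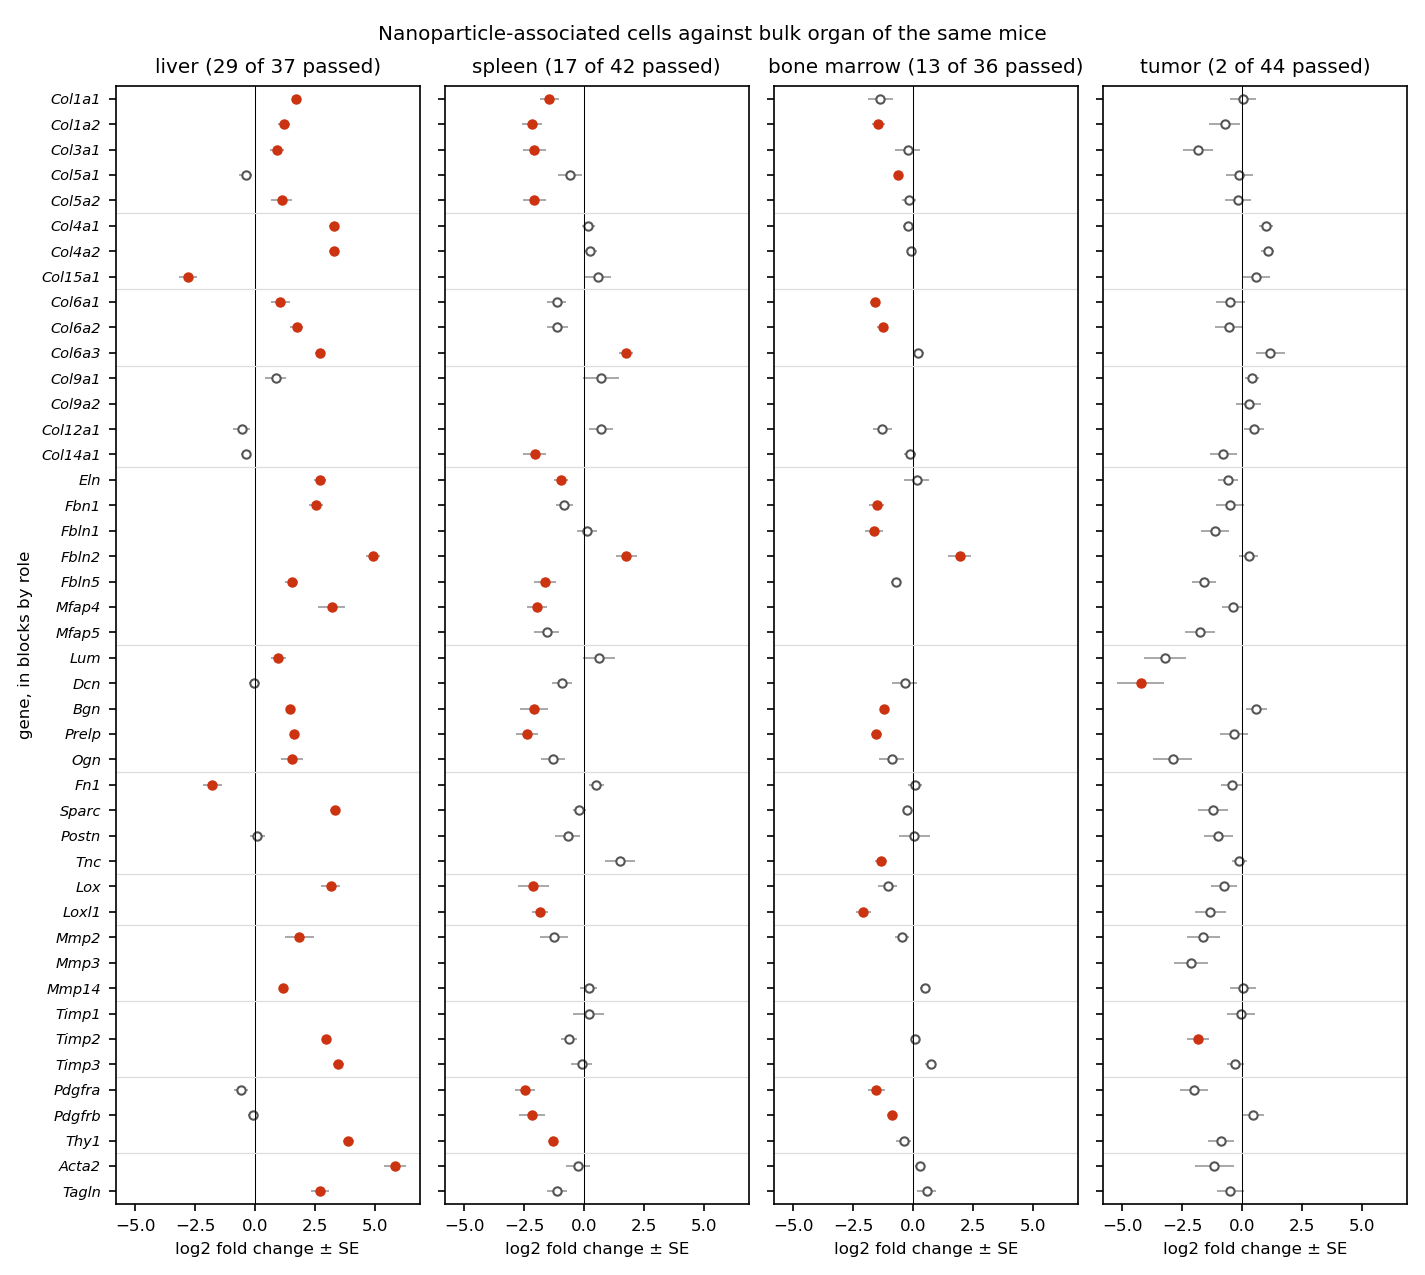
Log2 fold change ± SE of each tested member (rows, in blocks by role) from bulk organ to nanoparticle-associated cells, in liver, spleen, bone marrow and tumor; filled points passed at an adjusted p under 0.05. Most filled points lie to the right in liver and to the left in spleen and bone marrow, and Fbln2 is filled on the right in all 3.

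In liver the rise reached most roles. Acta2 went from 0.47, 0.662 and 0.312 CPM in bulk to 14.0, 19.5 and 10.4 CPM in nanoparticle-associated cells (5.82 ± 0.46, adjusted p = 4.24e-06 by edgeR's quasi-likelihood test), and Fbln2 from 1.41, 0.828 and 0.469 to 22.0, 12.9 and 12.5 CPM (4.92 ± 0.28, 6.56e-07). Neither gene had overlapping groups. Basement membrane collagens Col4a1 and Col4a2 rose by 3.28 ± 0.20 and 3.29 ± 0.19, Col4a1 from 24.7, 37.8 and 28.7 to 235, 109 and 167 CPM. Sparc rose from 75.7, 104 and 76.1 to 647, 351 and 469.7 CPM (3.33 ± 0.18, 5.38e-07) and became the highest member per kilobase, at 129. Thy1 (3.88 ± 0.24), the inhibitors Timp3 and Timp2 (3.48 ± 0.22 and 2.96 ± 0.18), Lox (3.15 ± 0.41), all 5 elastic fibre genes tested and all 3 collagen VI chains were higher too.

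The fibrillar collagens rose less, with Col1a1 at 1.73 ± 0.20, Col1a2 at 1.21 ± 0.24 and Col3a1 at 0.92 ± 0.28. Pdgfra, Pdgfrb, Dcn, Col14a1, Col12a1, Col5a1, Postn and Col9a1 did not pass, with Dcn at 111, 122 and 111 CPM in bulk and 104, 57.7 and 35.3 CPM in the nanoparticle-associated cells. Fn1 was lower, going from 1803, 1622 and 1241 to 172, 333 and 190.0 CPM (-1.79 ± 0.39, adjusted p = 0.00258), and Col15a1 from 12.2, 15.1 and 8.20 to 1.82, 0.728 and 0.275 CPM (-2.80 ± 0.39). Hepatocyte markers went from at least 89740.3 CPM in sum to at most 23265, and 7 of 8 passed as lower. Endothelial markers were at 2005, 858 and 1424 CPM against 158, 176 and 121 in bulk, and all 8 passed as higher, as did all 8 neutrophil and all 8 T cell markers. Of 8 macrophage markers 4 passed as higher and 0 as lower. Mural markers summed to 65.4, 45.8 and 31.7 against 51.5, 53.9 and 46.6 CPM, of which 4 of 5 tested passed as higher after scaling, and stellate cell and liver fibroblast markers to 205, 91.1 and 114 against 192, 205 and 192 CPM, with 4 higher and 3 lower of 8. The part of these cells in the matrix genes was not tested.

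The scale matters in liver, where mitochondrial counts took up to 57.2% of a nanoparticle-associated library. With library totals as the scale the median of all genes moved by -0.81. On that scale 19 members were higher and 8 lower (20.2 and 52% of all genes), against 27 and 2 with TMM scaling. Higher calls were thus lost and lower calls gained. Under 12 alternatives 20 of the 29 calls held in every one, 18 higher (Acta2, Fbln2, Thy1, Timp3, Timp2, Sparc, Col4a1, Col4a2, Mfap4, Lox, Tagln, Eln, Col6a3, Fbn1, Col6a2, Col1a1, Prelp and Bgn) and both lower. Col1a2, Col3a1, Col5a2, Col6a1, Lum, Ogn, Fbln5 and Mmp14 did not pass on library totals, and Mmp2 was lost without each of 4 libraries.

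In spleen the direction was the opposite for most members that passed. Pdgfra was at 19.8, 11.3 and 18.5 CPM in bulk and 3.51, 1.06 and 3.32 CPM in nanoparticle-associated cells (-2.46 ± 0.40, adjusted p = 0.00377 by edgeR's quasi-likelihood test), and Pdgfrb and Thy1 were lower too (-2.16 ± 0.54 and -1.29 ± 0.21). Of the 5 fibrillar collagen chains 4 passed as lower, Col1a2 from 105, 60.1 and 75.4 to 22.2, 5.90 and 19.2 CPM (-2.18 ± 0.42) and Col3a1, Col5a2 and Col1a1 by -2.07, -2.07 and -1.46. Both crosslinking enzymes were lower, as were the proteoglycans Prelp (-2.38 ± 0.45) and Bgn (-2.10 ± 0.59). The basement membrane collagens did not pass, with Col4a1 at 81.9, 51.4 and 54.3 CPM in bulk and 86.2, 39.0 and 63.7 CPM in nanoparticle-associated cells.

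The 2 members higher in spleen were Col6a3, the long chain of collagen VI, from 27.5, 14.9 and 20.5 to 94.9, 46.8 and 44.8 CPM without overlap (1.74 ± 0.30, adjusted p = 0.00487), and Fbln2, from 5.75, 3.10 and 3.49 to 19.9, 5.82 and 11.8 CPM (1.76 ± 0.42). The other chains of collagen VI, Col6a1 and Col6a2, had fitted changes of -1.14 ± 0.40 and -1.12 ± 0.43, which did not pass. The nanoparticle-associated cells of mouse 1 were the highest of the 3 for 38 members and those of mouse 2 the lowest for 38. With the mouse as a block 27 members passed, 3 higher and 24 lower (54.1% of all genes, 26.8% higher and 27.2% lower). Calls that held under all 12 alternatives were those of Pdgfra, Prelp, Col1a2, Col14a1, Mfap4, Loxl1 and Thy1, lower, and Col6a3, higher. Of 8 macrophage markers 3 were lower and 0 higher in these cells, with sums of 891, 304 and 575 against 1392, 978 and 946 CPM in bulk, and 3 of 8 endothelial markers were higher. T cell markers (413, 479 and 704 CPM in bulk against 278, 235 and 293) were lower in 5 of 8, and adipocyte markers (100.5, 70.5 and 59.1 against 38.9, 12.4 and 20.5 CPM) in 5 of 7 tested. The part of these cells was not tested.

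In marrow, too, most members that passed were lower in nanoparticle-associated cells. Loxl1, which crosslinks elastin, was at 4.34, 3.12 and 3.82 CPM in bulk and 0.78, 0.811 and 1.06 CPM in nanoparticle-associated cells (-2.09 ± 0.30, adjusted p = 0.00749 by edgeR's quasi-likelihood test), and Col6a1 at 10.01, 11.7 and 8.84 against 3.35, 3.69 and 2.98 CPM (-1.61 ± 0.19, 0.00252). Bgn (-1.21 ± 0.17) was the third call that held under all 12 alternatives. Prelp, Fbn1, Col1a2, Tnc, Col6a2, Pdgfra, Pdgfrb, Col5a1 and Fbln1 were lower by -1.64 to -0.65, and lost their call in some alternatives. Fbln2 was the 1 gene higher, from 0.62, 1.29 and 0.595 to 5.38, 2.704 and 1.83 CPM (1.94 ± 0.48, adjusted p = 0.0491), a call that was lost on library totals and without any 1 of the 6 libraries. Fn1, the most abundant member of marrow, was at 494, 486 and 273 CPM in bulk and 656, 384 and 283 CPM in nanoparticle-associated cells and did not pass. Counts without 1 library ran from 4 to 14, with 4 without bulk library 1 and 4 without bulk library 2 (2.3 and 2.09% of all genes). Skeletal muscle markers were at 657 CPM in the nanoparticle-associated cells of mouse 1, against 6.85 and 7.68; their part was not tested.

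In tumor few changes passed. Timp2, an inhibitor of matrix proteases, was at 154, 84.8 and 91.7 CPM in bulk and 34.0, 18.5 and 43.2 CPM in nanoparticle-associated cells, without overlap (-1.86 ± 0.45, adjusted p = 0.0492 by edgeR's quasi-likelihood test). Dcn was at 573, 411 and 39.6 against 20.3, 23.8 and 14.5 CPM, also without overlap (-4.24 ± 0.99, adjusted p = 0.0457). Both calls were lost without any 1 of the other 5 libraries, while leaving out bulk library 3 gave 13 members (12.8% of all genes). Both were also lost with the mouse as a block, under which 1 other member passed (4.28% of all genes). DESeq2 gave 11, 2 higher and 9 lower (22.6% of all genes). Adipocyte markers went from 13697, 1588 and 403 CPM in bulk to at most 42.9 CPM, with 6 of 7 tested lower, and 5 of 6 tested macrophage markers were lower; their part was not tested. Col9a1 was at 357, 437 and 811 CPM in bulk and 691, 522 and 831 CPM in nanoparticle-associated cells (0.42 ± 0.29), and mammary epithelial markers were at 14250 to 16071 CPM in these cells. The basement membrane collagens Col4a1 and Col4a2 had changes of 1.00 ± 0.29 and 1.05 ± 0.29 with adjusted p of 0.0706 and 0.0634.

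The change from bulk to nanoparticle-associated cells differed among the 4 organs for 34 of the 44 genes (interaction over 24 libraries, edgeR's quasi-likelihood test; 58.3% of all genes passed). Of the members, 37 passed in at least 1 organ (84.1%, against 73.3% of the 16938 genes tested in any of the 4). Higher in liver and lower in spleen were 11 members (25%, against 4.97% of those genes), and higher in one organ and lower in another were 15 (34.1%, against 9.8%). The 6 genes lower in both spleen and marrow (13.6%, against 1.6%) were Col1a2, Bgn, Prelp, Loxl1, Pdgfra and Pdgfrb. Fbln2, higher in liver, spleen and marrow, and Col6a3, higher in liver and spleen, were the 2 members that passed as higher in more than 1 organ (4.55%, against 11.3% of those genes). Higher in all 3 of liver, spleen and marrow were 2.27% of the members and 2.18% of those genes. These shares do not allow for the choice of members with earlier results of these data known. The spleen and marrow calls of Fbln2 did not hold under all 12 alternatives. Thy1 had the smallest adjusted p of the members for the difference (9.72e-07), with changes of 3.88 in liver, -1.29 in spleen, -0.40 in marrow and -0.90 in tumor.

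The single lymph node library of nanoparticle-associated cells (BP mouse 2) has no replicate and was not tested. Against the range of the 3 bulk BP nodes, 1 member was above, 21 were below and 22 were within. Of the 16877 genes with at least 10 counts in 1 of these 4 libraries, 28.5% were above, 40.2% below and 31.3% within. Fbln1 was the gene above, at 9.77 CPM against at most 7.69 in the 3 bulk nodes and 0.534 in that of the same mouse. The latter ratio of 18.3 rests on few counts, since 3 counts came to 0.32 CPM in that bulk node. That node was also the lowest of the 3 for 37 of the 44 members. Fbln2 (28.5 against 2.24 CPM), Col15a1 (35.03 against 8.76) and Col6a3 (75.2 against 19.2) were also higher than in that node but within the range of the 3. Pdgfra (5.09 against 27.6 CPM), Pdgfrb (3.95 against 18.1) and Thy1 (60.4 against 207) were below it.

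A further 84 genes of the matrix and its enzymes that are no members were read in the same fits. With BP against PBS 0 of them passed in any of the 6 organs. In nanoparticle-associated cells 48 of 59 tested were higher and 4 lower in liver, against 37.3 and 37.5% of all genes. In spleen 17 of 70 were higher and 16 lower (20.2 and 22% of all genes). In marrow the counts were 4 and 2 of 55 (4.8 and 2.9%) and in tumor 7 and 3 of 77 (5.87 and 3.17%). Adamts1, a secreted protease, led in liver, spleen and marrow (5.10 ± 0.28, 3.98 ± 0.27 and 3.52 ± 0.35), and Ccn1, a matricellular early response gene, led in tumor (3.42 ± 0.57). Col18a1, a basement membrane collagen made by hepatocytes, was lower in liver (-2.31 ± 0.34), as Col15a1 was. In the PBS organs Col11a1, a cartilage collagen like collagen IX, was highest of these genes in tumor (7.76 ± 0.51), Matn4 in lung (8.05 ± 0.39), Col18a1 in liver (6.15 ± 0.48), Thbs4 in spleen (2.91 ± 0.52), Timp4 in lymph node (6.16 ± 0.58) and Mmp8, a collagenase of neutrophils, in marrow (8.49 ± 0.30).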

How the data were processed

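RNA of bulk organs and of nanoparticle-associated cells was sequenced in 49 libraries, and the authors deposited 1 table of expected counts per gene and library; per the submitters' processing notes the tools included FastQC 0.11.9, cutadapt 3.5, STAR 2.7.9a and RSEM 1.3.1 and the build mm10. Their settings, the strand setting and the annotation release are not given in the sources used here. Between 4.64 and 7.92% of the values of a library were not whole, so the counts were rounded. Gene positions and exon lengths come from a GENCODE annotation on GRCm38, to which 55141 of the 55487 genes were matched. Levels are CPM of the library total, of 9362264 to 19734849 counts. Tests used edgeR 4.0.16 (quasi-likelihood fit, TMM factors, and filterByExpr at its minimum count of 10) with limma 3.58.1 in R 4.3.3, over all genes that passed the filter, with Benjamini-Hochberg adjustment and a threshold of 0.05, and the fitting was tested on simulated data.

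Comparisons were BP against PBS in each bulk organ, nanoparticle-associated cells against bulk in each organ with 3 libraries of both, each PBS organ against the mean of the others, and 2 interactions. The 44 members, the marker lists and the other matrix genes were chosen with earlier results of these data known. Named are up to 8 members per direction that passed with the largest change, the 4 with the smallest p where none passed, genes that anchor a role, and up to 3 other matrix genes per direction; others were named after their values were seen. Alternatives were DESeq2 1.42.0, its size factors in edgeR, library totals without a scaling factor, no filter on low counts, fits without mitochondrial genes, the mouse as a block and leaving out each library or mouse number. The organs, and the bulk and nanoparticle-associated libraries, of 1 mouse share that mouse, so mouse number pairs them; the correlation of paired deviations ran from -0.18 to 0.62 for the latter and from -0.051 to 0.47 for the PBS organs. BP and PBS mice share only a number. Replicate libraries differed beyond sampling noise in all 48 pairs checked, so each counts as 1 replicate. Each library is 1 mouse.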

Additional observations from a re-analysis of the deposited data

Results flagged for a closer look

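The change from bulk organ to nanoparticle-associated cells differed among liver, spleen, bone marrow and tumor for 34 members by a test of the interaction with edgeR's quasi-likelihood test. Of these, 15 passed as higher in one organ and lower in another (34.1% of the members, against 9.8% of all genes tested), and each is given with its adjusted p for the interaction. Higher in liver and lower in spleen alone were Col1a1 (0.00435), Col3a1 (0.00977), Col5a2 (0.00806), Eln (8.85e-05), Fbln5 (0.00101), Mfap4 (0.000269), Lox (0.000721) and Thy1 (9.72e-07). Higher in liver and lower in both spleen and marrow were Col1a2 (0.00423), Bgn (0.000282) and Prelp (0.000148). Higher in liver and lower in marrow were Col6a1 (0.0203), Col6a2 (0.00268) and Fbn1 (0.000424), and Timp2 (1.41e-06) was higher in liver and lower in tumor. The liver calls of Col1a2, Col3a1, Col5a2, Col6a1 and Fbln5 did not pass on library totals. Of the lower calls of the 15, those in spleen of Col1a2, Mfap4, Prelp and Thy1 held under all 12 alternatives. So did those in marrow of Col6a1 and Bgn, and none of the rest, among them that of Timp2 in tumor. Calls in both directions held throughout for Mfap4, Prelp and Thy1 (liver and spleen) and for Bgn (liver and marrow). The interaction itself passed under all 9 alternatives for 20 of the 34 members.

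The change from PBS to BP in bulk tissue differed among the 6 organs for Prelp, with an adjusted p of 0.0341 in the same kind of test. That call was lost on library totals, with the mouse as a block and without each mouse number in turn.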

How the results depend on the processing

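Counts of members that passed, with 1 library left out, ran from 0 to 13 for nanoparticle-associated cells in tumor (2 with all libraries), from 25 to 31 in liver (29), from 10 to 25 in spleen (17) and from 4 to 14 in marrow (13). Of all genes, 0.131 to 12.8% passed in these tumor fits (9.04% with all libraries) and 69 to 74.4% in liver (74.8%). In spleen the share ran from 28.9 to 41.8% (42.2%) and in marrow from 2.09 to 13.7% (7.69%). The tumor count was 13 without bulk library 3 (12.8% of all genes) and 0 without each of the other 5 (0.131 to 2.82%). The spleen count was 11 without bulk library 1, 2 or 3 (30.3, 31 and 30.1% of all genes) and 10 without nanoparticle-associated library 3 (28.9%). The marrow count was 4 without bulk library 1 or 2 (2.3 and 2.09% of all genes). It was 5 without nanoparticle-associated library 2 or 3 (2.61 and 3.77%) and 8 without bulk library 3 (3.38%). For the PBS organs, leaving out a mouse gave 7 to 19 in spleen and 13 to 32 in lymph node, with 7 and 13 without mouse 3. It gave 22 to 25 in tumor, 30 to 34 in lung, 29 to 33 in liver and 26 to 31 in marrow. Shares of all genes in these fits ran from 27.5 to 47.4% in spleen, 17.1 to 35.4% in lymph node and 35.5 to 52.6% in tumor. In lung they ran from 34.4 to 52.6%, in liver from 47.4 to 59.9% and in marrow from 39.9 to 58.9%. In each organ the lowest share was that without mouse 3. BP against PBS gave 0 in every such fit (at most 0.0694% of all genes). The interactions gave 23 to 33 members (nanoparticle-associated, with 35.4 to 40.5% of all genes) and 0 (BP, with 0%). In tumor, the changes of Col1a1 (-0.24 to 3.10), Col3a1 (-0.72 to 2.47), Lox (-0.80 to 2.75) and Mmp14 (-0.26 to 2.60) were below 0 without mouse 1 and above 0 without either other mouse.

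DESeq2 passed 3 members for BP in tumor, 11 for nanoparticle-associated cells in tumor and 2 in the BP interaction (0.949, 22.6 and 2.12% of all genes). Without a filter on low counts 5 passed for nanoparticle-associated cells in tumor (5.5% of all genes). Library totals gave 0 in the BP interaction (0.0484% of all genes) and, for liver, moved the balance of calls as given above. Over 229 results of single genes, calls were lost for 22 with library totals, 7 with DESeq2 and 1 with its size factors, and 3 were gained with DESeq2. Causes of these losses and gains were not tested.

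With the mouse as a replicate block, 1 member passed in tumor, 27 in spleen, 28 in liver and 15 in marrow for nanoparticle-associated cells (4.28, 54.1, 73.6 and 20% of all genes). In the BP interaction 0 passed (0.00537% of all genes). With the block, 8 calls of single genes were lost. The BP and PBS mice share only a number (correlations of -0.25 to 0.46 in lymph node), and the block left 0 members in each organ.

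With 3 mice per group, small changes of weakly expressed members could not be resolved. Larger changes of well expressed members, such as those of Fbln2 and Tnc in BP tumors, did not pass edgeR's test either. In 3 organs of BP against PBS some members were too low to be tested (34 of 44 tested in liver, 38 in marrow, 42 in spleen).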
